A study of Homo sapiens with 9 samples.

Results

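ZNF143-alone sites absent after auxin are wild-type ZNF143 peaks that overlapped no wild-type CTCF peak, no wild-type RAD21 peak and no ZNF143 peak of CTCF-AID cells at 24 h of auxin. There were 2657 of them among 36770 wild-type ZNF143 peaks on chromosomes 1 to 22 and X. They were chosen by overlap of 1 bp or more between deposited peak lists, so their absence from those 3 lists is the rule and not a finding. Their number rests on the overlap criterion and on weak peaks: a reciprocal overlap of 50% gave 12120 sites, and the stronger 50% of the wild-type list held 138. Peaks were mapped by ChIP-nexus, a form of chromatin immunoprecipitation that digests the precipitated DNA with exonuclease up to the bound protein. The cells were HEC-1-B, a human uterine adenocarcinoma line, and lines derived from it.

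Wild-type cells carried neither genetic change and had ZNF143, CTCF and RAD21 libraries. ZNF143KO cells, in which ZNF143 was deleted, had CTCF and RAD21 libraries. CTCF-AID cells, in which CTCF carries an auxin-inducible degron, had ZNF143 and CTCF libraries at 0 h and at 24 h of the auxin IAA (500 µM per the labels' protocols). Each of the 9 groups was 1 library, so no difference below was tested against replicate spread. The labels do not say how many clones the derived lines came from, and the knockout and the degradation of CTCF were taken from the labels.

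ZNF143 is a zinc finger transcription factor known for binding at promoters, among them those of small nuclear RNA genes. CTCF is a zinc finger protein that binds its own DNA motif and stops loop extrusion by cohesin, the ring complex of which RAD21 is a subunit. ZNF143 is often found together with CTCF and cohesin. An auxin-inducible degron lets the plant receptor TIR1 mark the tagged protein for the proteasome once auxin is added.

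Most of these sites were weak, narrow peaks. The signal value, the authors' fold enrichment at the summit over local background, ran from 2.31 to 21.2 with a median of 6.88 (quartiles 6.03 and 7.75). ZNF143-alone peaks that were kept at 24 h, 6511 in number, had a median signal of 14.1 (quartiles 8.61 and 22.5) and so reached far higher values. Peaks with both CTCF and RAD21 that were absent at 24 h, 20156 in number, had a median of 9.47 (quartiles 7.48 and 12.1). The median width was 34 bp, against 88 bp for the kept ZNF143-alone peaks. At the summit the sites had a median of 8 reads (quartiles 6 and 9), as solved from the deposited fold and −log10 p, where the kept ones had 19 (quartiles 11 and 43). The list's own limits were close: the shortest peak was 27 bp and the lowest summit count was 4 reads. The highest summit count of the list was 54 reads, reached by kept peaks and by peaks with CTCF and RAD21, while the sites reached 53. The highest count went with the shortest peak: 54 reads and 27 bp here, 62 and 31 in the 0 h ZNF143 list, 58 and 29 in the 24 h one. A cap on strong peaks at these counts was not tested, and under one their counts and folds would be too low. Placed in 10 equal groups of the wild-type ZNF143 list by signal, 76.9% of the sites (2044) fell in the 3 weakest groups and 0.790% (21) in the 3 strongest, which held 53.2% of the kept ones. ZNF143-alone peaks made up 24.9% of the wild-type ZNF143 list, and 63.8% of all peaks of that list were absent at 24 h. Both shares rest on lists that the rule used and are given only as background.

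**Figure D1:**
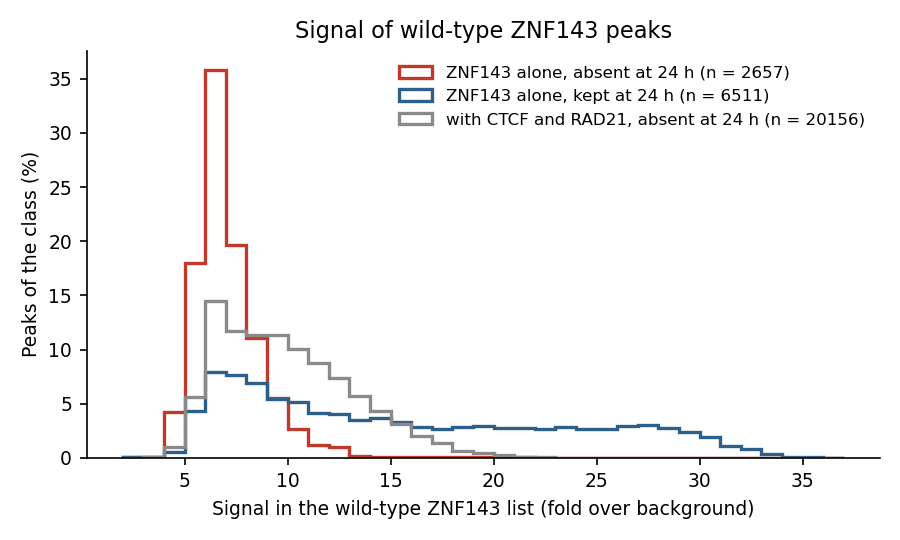
Share of peaks (%) by signal in the wild-type ZNF143 list (fold over background, bins of width 1) for ZNF143-alone peaks absent at 24 h, ZNF143-alone peaks kept at 24 h and peaks with CTCF and RAD21 absent at 24 h. The first class is concentrated around its median of 6.88, whereas the kept peaks reach above 30 and have a median of 14.1.

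The 0 h ZNF143 list, from the same CTCF-AID line before auxin, was not used by the rule, and it divided the sites nearly evenly. It held 34531 peaks, against 16392 in the 24 h ZNF143 list that the rule used. A 0 h peak was present at 1249 of the 2657 sites, 47.0% (95% exact binomial interval 45.1 to 48.9). The other 1408 sites, 53.0%, had no 0 h peak, so they were absent from the degron line's ZNF143 list without auxin as well as with it. Over all wild-type ZNF143 peaks, 73.1% had a 0 h peak. Among the kept ZNF143-alone peaks the share was 97.9% (97.6 to 98.3), a difference of -50.9 points (Newcombe interval -52.8 to -49.0). In the stronger 50% of the wild-type list, with 138 sites, it was -25.1 points (-33.0 to -18.6). With the ZNF143 lists cut to equal length, 81 sites were left, 33.3% (23.2 to 44.7) of them found at 0 h, and the difference was -61.6 points. The 0 h and 24 h libraries share their cell line, so being kept at 24 h and being found at 0 h are not independent. The intervals reflect how many peaks were counted and leave out any variation between cultures.

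Recovery at 0 h went with the strength of the wild-type peak. In the weakest of the 10 signal groups (signal up to 6.03), 37.8% (34.5 to 41.3) of 809 sites were found at 0 h. The share was 41.6% of 702 sites in group 2, 50.1% of 533 in group 3, 57.1% of 326 in group 4 and 63.8% of 149 in group 5. In group 6 it was 69.9% of 73 sites and in group 7 79.5% (64.7 to 90.2) of 44. Groups 8, 9 and 10 held only 11, 6 and 4 sites, of which 9, 5 and 3 were found. Among the 138 sites in the stronger 50% of the wild-type list, 74.6% were found at 0 h.

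The kept ZNF143-alone peaks were found at 0 h in at least 88.9% of cases in every signal group, also where they were as weak as the sites absent at 24 h. With the kept peaks weighted to the sites' numbers in the signal groups, their share was 93.1%, which left a difference of -46.1 points. Peaks with CTCF and RAD21 that were absent at 24 h were found at 0 h in 61.2% of cases (60.6 to 61.9), 14.2 points more often than the ZNF143-alone sites. Their higher signal moved with this. Weighted to the signal groups of the ZNF143-alone sites, their share was 37.4%, and the ZNF143-alone sites were then found more often by 9.61 points. This order held only among weak peaks. The ZNF143-alone sites were found more often by 16.7 points in group 1 (12.9 to 20.5), by 9.07 in group 2 (4.98 to 13.2) and by 10.1 in group 3 (5.43 to 14.8), and by 3.97 in group 4 with an interval that included 0 (-1.79 to 9.59). In groups 5 to 10 they were found less often, by values from -1.23 points in group 5 to -22.8 in group 10. The interval included 0 in groups 5 to 9, and in group 10, with 4 sites, it ran from -67.7 to -2.11.

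**Figure D2:**
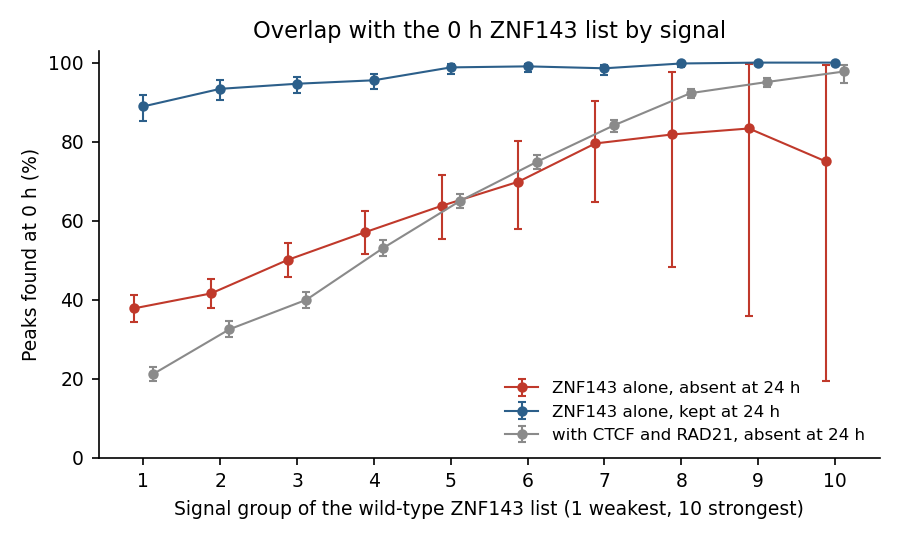
Share of peaks found in the 0 h ZNF143 list (%) by signal group of the wild-type ZNF143 list, for the 3 classes of the signal plot, with 95% exact binomial intervals (counting error over peaks only). The kept ZNF143-alone peaks lie at 88.9% or above in every group, and the sites absent at 24 h climb from 37.8% in group 1 to 79.5% in group 7, with wide intervals in groups 8 to 10.

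Where a 0 h peak was present, its summit was near that of the wild-type peak, which the choice of overlapping narrow peaks largely fixes. The wild-type and 0 h summits were a median of 10 bp apart (quartiles 4 and 20), and 75.8% of the sites had summits within 20 bp. For the kept ZNF143-alone peaks the median was 8 bp (quartiles 3 and 16), with 81.6% within 20 bp. The 0 h peaks at the sites were themselves low in their list, with a median signal at percentile 29.2 of the 0 h list against 77.3 for 0 h peaks at the kept ones. Their summit counts had a median of 12 reads (quartiles 10 and 15), against 33 reads (20 and 56) at the kept ones. The highest count in the 0 h list was 62 reads. In the 0 h and 24 h lists alike, no peak had fewer than 6 reads at its summit. The background density of the 24 h ZNF143 library was 12.1 reads per kb, that of the 0 h library 13.5 and that of the wild-type library 5.96, so by this measure both CTCF-AID libraries were denser than the wild-type one. How far reads remained at the sites at 24 h below the threshold of the peak caller was not tested, as the lists hold called peaks only.

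**Figure D3:**
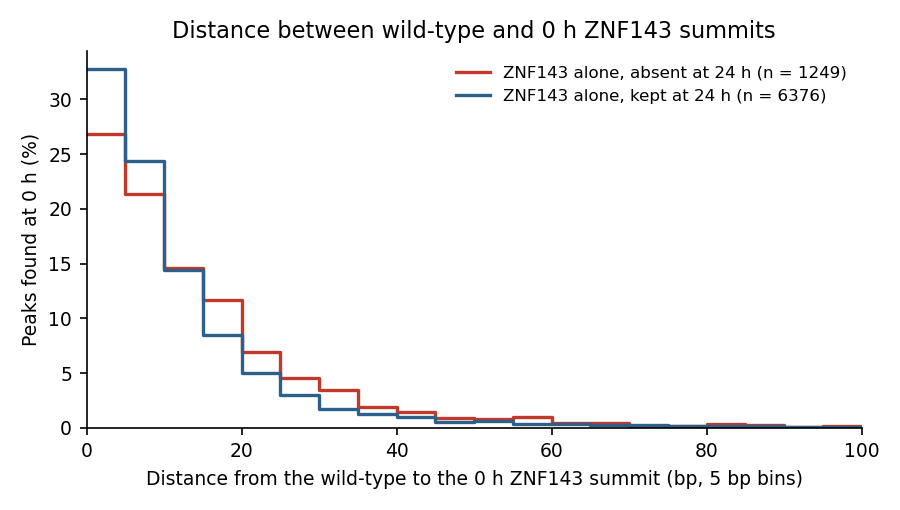
Distance between the wild-type ZNF143 summit and the nearest summit of an overlapping 0 h peak (bp, in bins of 5 bp, up to 100 bp) at ZNF143-alone peaks found at 0 h, as a share of each class (%). Both classes have most summits within 20 bp of each other, 75.8% for the sites absent at 24 h and 81.6% for those kept.

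The 1249 sites found at 0 h and the 1408 absent there overlapped widely in wild-type strength. Their median signals were 7.07 (quartiles 6.03 and 8.30) and 6.61 (5.95 and 7.50), and their median widths 37 and 31 bp. The highest signals were 21.2 and 20.7. Of the 1408 sites, 67 (4.76%) had a 0 h peak within 100 bp and 228 (16.2%) within 1 kb, so most were far from any 0 h peak.

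The strongest sites found at 0 h are given with their values in each list, each signal being comparable only within its own list. The site at chr7:102230341-102230582 (hg19, as all coordinates here) had a wild-type ZNF143 signal of 21.2 with 37 summit reads and a 0 h signal of 7.98, the summits 7 bp apart. At chr20:2032651-2032749 the wild-type signal was 19.6 with 25 reads and the 0 h signal 9.86, 5 bp away. The site at chr7:102131149-102131414 had a wild-type signal of 19.4 with 35 reads and a 0 h signal of 8.43, also 5 bp away. Both chromosome 7 sites were wide, at 242 and 266 bp, and their local backgrounds were 4.90 and 5.32 times the most frequent background of the list. At chr14:93230779-93230866 the wild-type signal was 18.4 with 22 reads and the 0 h signal 13.5, 6 bp away. None of these 4 sites had a peak in the knockout CTCF, knockout RAD21 or either CTCF-AID CTCF list, and the nearest 24 h ZNF143 peak was between 11690 and 45920 bp away.

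The strongest sites absent at 0 h had no peak in any of the other 8 lists. At chr9:99540379-99540504 the wild-type ZNF143 signal was 20.7 with 28 summit reads, and the nearest 0 h and 24 h ZNF143 peaks were 76097 and 76208 bp away. At chr14:36367579-36367677 the signal was 16.4 with 20 reads. The site at chr7:44076005-44076149 had a signal of 15.01 with 22 reads. These were among the stronger peaks of the wild-type list, in signal groups 8 to 10, and had no called ZNF143 peak in the degron line's list of either time. The fourth, at chr11:117997032-117997204, had a signal of 13.4 with 16 reads.

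CTCF and RAD21 in the knockout were scarce at the sites. A knockout CTCF peak overlapped 38 of them, 1.43% (1.01 to 1.96), and a knockout RAD21 peak overlapped 49, 1.84% (1.37 to 2.43). Of all wild-type ZNF143 peaks, which include the CTCF and RAD21 sites that the rule removed, 73.1% had a knockout CTCF peak and 74.5% a knockout RAD21 peak. Both knockout peaks were present at 16 sites, CTCF without RAD21 at 22 and RAD21 without CTCF at 33, which makes 71 sites (2.67%) with either. By the solved background, the knockout libraries were the denser ones, with 18.9 against 8.63 background reads per kb for CTCF and 26.1 against 7.81 for RAD21, and the part of this density in the overlaps was not tested.

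RAD21 in the knockout was less frequent at the sites than at the kept ZNF143-alone peaks, and for CTCF the interval of the difference included 0. Of the kept peaks, 560 (8.60%, 7.93 to 9.31) had a knockout RAD21 peak, a difference of -6.76 points (-7.59 to -5.88) for the sites absent at 24 h. The kept peaks with a knockout CTCF peak numbered 131 (2.01%, 1.68 to 2.38), a difference of -0.582 points with an interval from -1.12 to 0.0313. The CTCF difference did not keep its side of 0 under every criterion. With the other lists widened by 100 bp it was -0.821 points (-1.38 to -0.178). With a reciprocal overlap of 50% it was 0.174 points (-0.257 to 0.575), and by summits within 50 bp it was -0.0427 points. Part of the RAD21 difference went with signal: weighted to the sites' signal groups, 5.55% of the kept peaks had a knockout RAD21 peak, a difference of -3.70 points. It was -2.30 points with a reciprocal overlap of 50%, a criterion that also redefines both classes. By summits, which do not depend on width, 38 sites (1.43%) and 465 kept peaks (7.14%) had a knockout RAD21 summit within 50 bp of their own. In the weakest signal group the shares with a knockout RAD21 peak were 1.24% (0.594 to 2.26) and 5.54% (3.46 to 8.35). In group 3 they were 2.81% and 3.96% (a difference of -1.15 points, -3.50 to 1.10). In group 5 they were 0.671% (1 of 149 sites) and 7.99%, with intervals apart. The difference was negative in all 10 groups. Its interval left out 0 in groups 1, 2 and 5 and included 0 in groups 3, 4 and 6 to 10.

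Local background also moved with class. A solved background of at least 1 read at the summit was found at 63 sites (2.37%) and at 1151 kept peaks (17.7%). Of these, 29 sites and 1142 kept peaks were found at 0 h. How far this background counts reads of the peak itself and of its neighbours was not tested. Without the peaks of at least 1 background read, the RAD21 difference was -6.70 points, and the CTCF difference was -0.0313 points (-0.545 to 0.560). The knockout RAD21 peaks at the sites were weak in their own list, at a median percentile of 12.3 (quartiles 6.12 and 20.2), and so were those at the kept peaks, at 11.8. Their summits lay a median of 17 bp from the ZNF143 summit (quartiles 7 and 45). The 38 knockout CTCF peaks had a median percentile of 27.6 in their list and lay a median of 8 bp from the ZNF143 summit (quartiles 4 and 35.25).

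**Figure D4:**
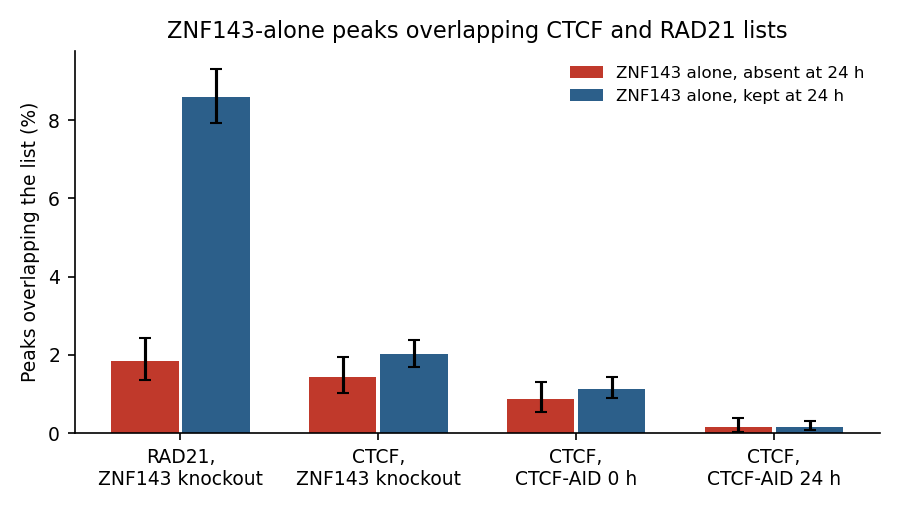
Share of ZNF143-alone peaks (%) that overlap a peak of 4 lists not used by the rule, for peaks absent and kept at 24 h, with bars from 0 and 95% exact binomial intervals (counting error over peaks only). The RAD21 list of ZNF143 knockout cells overlaps 1.84% of the absent and 8.60% of the kept peaks, while the intervals of the 2 classes overlap in the 3 CTCF lists.

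Among the sites, a 0 h ZNF143 peak went with RAD21 in the knockout and with 0 h CTCF, both at low shares. Of the 1249 sites found at 0 h, 13 (1.04%, 0.555 to 1.77) had a knockout CTCF peak and 31 (2.48%, 1.69 to 3.50) a knockout RAD21 peak. Of the 1408 absent at 0 h, 25 (1.78%, 1.15 to 2.61) had a knockout CTCF peak and 18 (1.28%, 0.759 to 2.01) a knockout RAD21 peak. The difference, found minus absent at 0 h, was 1.20 points for RAD21 (Newcombe interval 0.170 to 2.33) and -0.735 points for CTCF (-1.67 to 0.193), so the interval left out 0 for RAD21 and included it for CTCF. For 0 h CTCF the difference was 0.935 points (0.221 to 1.78), from 17 and 6 sites. The found sites were somewhat stronger and wider in wild type, and the part of this in the differences was not tested. The part of local background was not tested either. A 0 h CTCF peak was present at 0.866% of all sites and at 0.617% of the 2594 without high local background.

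The strongest sites with a knockout peak reached only middle signal groups. At chr3:34461487-34461544 the wild-type ZNF143 signal was 12.1, the 0 h ZNF143 signal 12.2 and the knockout RAD21 signal 5.59, with the RAD21 summit 7 bp from that of ZNF143 and no knockout CTCF peak. At chr14:19048279-19048313 the wild-type ZNF143 signal was 11.5 and the knockout CTCF signal 9.03, the summits 2 bp apart, with no 0 h peak and no knockout RAD21 peak. This site lay 3654 bp from a wild-type CTCF peak and 3656 bp from a 24 h ZNF143 peak. At chr11:46615615-46615685 the wild-type ZNF143 signal was 10.5, the 0 h signal 6.36 and the knockout RAD21 signal 8.21, and the RAD21 and ZNF143 summits fell on the same base.

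CTCF of the degron line was found at fewer sites still, in shorter lists. The 0 h and 24 h CTCF lists held 30374 and 13865 peaks, against 63420 in the knockout CTCF list and 56861 in the knockout RAD21 list. The lowest −log10 q was 3.01 in both CTCF-AID CTCF lists and 5.00 in both knockout lists. With all lists cut at 5, 0.943% of 2333 sites had a 0 h CTCF peak, 1.89% a knockout CTCF peak and 2.49% a knockout RAD21 peak. The part of list length in this order was not tested. A 0 h CTCF peak overlapped 23 sites, 0.866% (0.550 to 1.30), and a 24 h CTCF peak 4, 0.151% (0.0410 to 0.385). The shares over all wild-type ZNF143 peaks were 65.9% and 36.1%. Among the kept ZNF143-alone peaks they were 1.14% (0.893 to 1.42) and 0.169% (0.0844 to 0.302), so the differences were -0.271 points (-0.678 to 0.217) and -0.0184 points (-0.180 to 0.229). Weighted to the sites' signal groups, the 0 h CTCF share of the kept peaks was 1.98%, a difference of -1.11 points. A reciprocal overlap of 50% redefines both classes and admits peaks with a lesser overlap with wild-type CTCF or RAD21. Under it, 5.12% of 12120 sites had a 0 h CTCF peak. Without peaks of high local background, 0.617% of 2594 sites had one (0.353 to 1.00). In all, 1367 of the 2657 sites (51.4%) had no peak in any of the 5 lists outside the rule, and 1205 (45.4%) had one in the 0 h ZNF143 list only.

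At the strongest sites with a 0 h CTCF peak, CTCF in wild-type cells was close by but did not touch. The site at chr1:2126477-2126539 had a wild-type ZNF143 signal of 9.49, a 0 h ZNF143 signal of 5.86 and a 0 h CTCF signal of 22.1, with the CTCF summit 265 bp away and a wild-type CTCF peak 188 bp away. At chr19:36066699-36066726 the ZNF143 signals were 8.69 in wild type and 6.32 at 0 h, and the CTCF signals 9.01 at 0 h and 11.5 in the knockout, with summits 7 and 4 bp from that of wild-type ZNF143. A wild-type CTCF peak began 89 bp from this site. At chr9:66833992-66834020 the ZNF143 signals were 8.21 in wild type and 7.62 at 0 h, and the CTCF signals 11.6 at 0 h and 6.51 in the knockout. The site lay 54 bp from a wild-type CTCF peak, and its local background was 8.92 times the most frequent value.

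Most sites were far from the lists that the rule used. The nearest wild-type CTCF peak was a median of 12940 bp away (quartiles 4458 and 29536) and the nearest wild-type RAD21 peak 14009 bp (5218 and 30492). For the kept ZNF143-alone peaks the medians were 10153 and 11693 bp. A wild-type CTCF peak lay within 1 kb of 308 sites (11.6%, 10.4 to 12.9) and of 967 kept peaks (14.9%, 14.0 to 15.7). The nearest 24 h ZNF143 peak was a median of 36888 bp away (quartiles 10349 and 116545), and within 100 bp at 126 sites (4.74%, 3.97 to 5.62). Of the 0 h peaks at the sites, 66 of 1246 (5.30%) overlapped a 24 h peak beside the site. These 66 were wide, with a median of 177 bp against 53 bp for the others.

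At the edge of the rule, 4 sites touched a 24 h ZNF143 peak without sharing a base, and 3 kept ZNF143-alone peaks shared just 1 bp with such a peak. The first 3 touching sites, by signal, were chr6:126307543-126307576 (signal 9.41), chr11:85935803-85935830 (6.81) and chrX:48554981-48555041 (6.03). The kept peaks just outside the rule were chr2:198318080-198318106 (signal 6.72), chr20:55043463-55043552 (6.52) and chr2:133195670-133195718 (5.82). Their summits lay 16, 77 and 53 bp from the 24 h summits. Signals ran from 6.03 to 9.41 at the 3 touching sites and from 5.82 to 6.72 at the 3 kept peaks, too few to compare in strength.

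A minority of the sites stood next to another ZNF143 peak. Of the sites, 372 (14.0%, 12.7 to 15.4) had a further wild-type ZNF143 peak within 1 kb, and at 284 of these the nearest such peak was the stronger one. The share was 22.4% (21.4 to 23.5) for the kept ZNF143-alone peaks and 4.69% (4.40 to 4.99) for peaks with CTCF and RAD21 absent at 24 h, and the 3 intervals were apart. The nearest neighbour was a kept ZNF143-alone peak at 138 of the 372 sites, another site of the same class at 83, a peak with both CTCF and RAD21 absent at 24 h at 74, and such a peak kept at 24 h at 50.

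Along the genome the sites took 29.0% (28.1 to 29.9) of the 9168 ZNF143-alone peaks, with a spread over chromosomes. The lowest share was on chromosome 19, with 187 of 860 (21.7%, 19.0 to 24.7), and the highest on chromosome 9, with 158 of 413 (38.3%, 33.5 to 43.1). Intervals lay wholly above the whole on 5 chromosomes, 3, 4, 9, 13 and 22, and wholly below it on chromosome 19. Over all wild-type ZNF143 peaks the share found at 0 h was highest on chromosome 19, at 84.3%, and 71.8% on chromosome 9. It was 63.3%, 63.0% and 63.3% on chromosomes 4, 13 and X and 75.3% on chromosome 22. Of the sites themselves, 48.7% on chromosome 19 and 39.9% on chromosome 9 were found at 0 h.

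**Figure D5:**
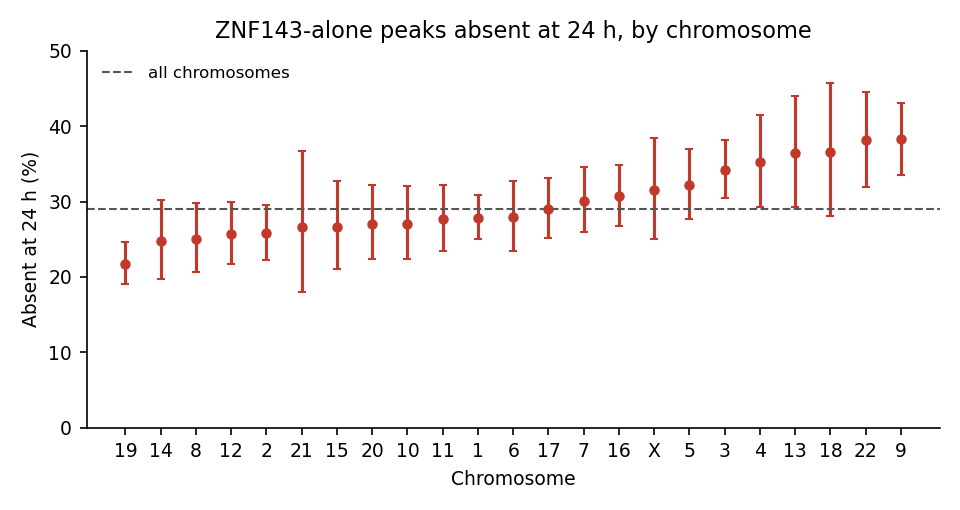
Share of ZNF143-alone peaks absent at 24 h (%) on each chromosome, ordered by that share, with 95% exact binomial intervals (counting error over peaks only). The dashed line marks the share over all chromosomes, 29.0%, below which chromosome 19 lies at 21.7% and above which chromosome 9 lies at 38.3%.

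Windows of 5 Mb gave a wider range. Of the 136 windows with at least 20 ZNF143-alone peaks, the share absent at 24 h ran from 6.45% to 62.5% with a median of 27.3% (quartiles 20.6 and 33.7). Intervals lay above the whole in 8 windows and below it in 13. Adjoining windows could differ: chr1:30000001-35000000 held 24 such sites among 41 ZNF143-alone peaks (58.5%, 42.1 to 73.7), and chr1:35000001-40000000 held 2 among 31 (6.45%, 0.791 to 21.4). In the first, 15 of the 24 sites were found at 0 h. Peaks with CTCF and RAD21 in these windows were kept at 24 h in 36.4% and 37.7% of cases, close to each other. The highest shares were in chr12:125000001-130000000, with 15 of 24, and chr9:125000001-130000000, with 14 of 23. These windows were picked for their values and carry no test.

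A few sites lay in stretches of very high local background. The 6 sites of highest background, named after their values were seen, were chr10:42388502-42388529, chr16:46432466-46432508, chr16:46433373-46433399, chr17:22260762-22260814, chr18:18517710-18517736 and chr10:42542175-42542202. Their backgrounds were 40.7 to 139 times the most frequent one of the list, and their signals of 2.31 to 4.37 were among the lowest of all sites. Their summit counts of 29 to 53 reads were, in contrast, far above the median of 8. A 0 h ZNF143 peak was present at 2 of them and a 0 h CTCF peak at 3. Leaving out all 63 sites with a background of at least 1 read left 2594 sites, of which 47.0% were found at 0 h.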

How the data were processed

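Peak lists of 9 ChIP-nexus libraries were used, 1 per group, with groups taken from sample titles. Per the submitters' processing notes, the tools were cutadapt 2.10, Bowtie2 2.3.5.1, SAMtools 1.12, MACS2 2.2.7.1 and deepTools, and the build GRCh37 (hg19). Settings, filters and pooling are not given in the sources used here. The authors deposited for each peak a score (the whole part of 10 times −log10 q), a fold enrichment, −log10 p and −log10 q, and a summit position. The lowest deposited −log10 q was 5.00 in the knockout lists and 3.00 to 3.02 in the others.

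Overlap meant at least 1 shared bp. Shares carry exact (Clopper-Pearson) and differences Newcombe 95% intervals, which cover counting error only. Summit counts and background were solved from fold and −log10 p under the Poisson model of MACS2, with 1 read assumed to be added to both terms of the fold. Whole counts gave −log10 p within 0.002 at 100% of peaks in every list. Background density is the most frequent background divided by the shortest peak length.

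Named peaks, ranked by wild-type signal, were the 4 highest found and the 4 highest absent at 0 h, the 3 highest with a knockout peak and the 3 highest with 0 h CTCF. To these came 3 on either side of the rule's edge. Members, lists and comparisons were chosen with earlier results of these data known. No genome of the files' build was used, so sequences and gene annotation were not analysed here. Alternatives were other overlap criteria, a −log10 q of at least 5, stronger or equally long lists, no peaks of high background, weighting by signal, and summits within 50 bp. Work was done in Python 3.11.15 with scipy 1.17.1, pandas 2.3.3, numpy 2.4.6 and, for plots, matplotlib 3.10.9. The overlap code was checked against a direct comparison of all pairs of peaks on part of these lists. The solving of summit counts and the Newcombe interval were tested on simulated data.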

Additional observations from a re-analysis of the deposited data

Results flagged for a closer look

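Outside chromosomes 1 to 22 and X, among them unplaced sequences and mitochondrial DNA, 37 of 441 wild-type ZNF143 peaks met the same rule, 8.39% (5.98 to 11.4), against 7.23% (6.96 to 7.50) of those on chromosomes 1 to 22 and X. These peaks were singled out because no comparison used them. Of the 37, 12 were found at 0 h.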

How the results depend on the processing

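Of 54 alternative values of 8 results, 31 lay inside the main value's own interval (for the number of sites, within 1.5 times it), 22 moved and 1 changed sign. Alternatives without high background, with weighting or with summits, and all those for the knockout RAD21 difference, were chosen after seeing the data. The cause of a shift was not tested, except that shorter lists hold fewer sites by construction. With a reciprocal overlap of 50% there were 12120 sites, of which 34.6% were found at 0 h, 1.96% had a knockout CTCF peak and 5.12% a 0 h CTCF peak. The differences from kept ZNF143-alone peaks were then -46.3 points at 0 h, 0.174 for knockout CTCF, a change of sign, and -2.30 for knockout RAD21. In the stronger 50% of the wild-type list there were 138 sites, 74.6% found at 0 h and 0% with 0 h CTCF, with differences of -25.1 points at 0 h and -8.68 for knockout RAD21. With ZNF143 lists of equal length (16392 peaks) there were 81 sites, 33.3% found at 0 h, 1.23% with knockout RAD21 and 0% with 0 h CTCF, and the differences were -61.6 and -8.94 points. With the other lists widened by 100 bp, the knockout CTCF difference was -0.821 points and its interval (-1.38 to -0.178) left out 0. At a −log10 q of at least 5, 2.49% had a knockout RAD21 peak. Weighting by signal gave -46.1 points at 0 h and -3.70 for knockout RAD21, and summits within 50 bp gave -46.5 and -5.71. For the knockout CTCF difference, weighting gave -0.454 points, summits gave -0.0427 and leaving out high background gave -0.0313. The distance to gene starts was not run, as no annotation of the files' build was used. No paired analysis was possible because each group held 1 library. With a median of 8 summit reads at the sites in wild type, absence from a list cannot be told apart from a count below its threshold.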
